A study of Mus musculus with 12 samples.

Results

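The OAS family is a set of interferon-induced genes whose enzymes detect double-stranded RNA. The members described here are Oas1a, Oas1g, Oas2, Oas3, Oasl1 and Oasl2, taken as a named list of 6 genes among the 48526 gene rows of the deposited tables and matched by Ensembl identifier to mouse symbols.

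Epithelial cells came from 4 female mice aged 3 months. The sample titles name the whole intestine as their source, whereas the extraction protocol names the proximal part of the small intestine, and the titles and the protocol were not reconciled here. In 2 mice, KAT2A and KAT2B, a pair of related lysine acetyltransferases, had been removed (KAT2A/KAT2B DKO, here DKO) by tamoxifen, injected intraperitoneally once a day on 4 days at 100 mg/kg. The solvent was corn oil (90%) with ethanol (10%), which the 2 control mice received alone. Cells were taken 2 days after the last dose, so the deletion and the exposure to tamoxifen cannot be told apart. Each mouse gave an input library of total RNA and a pulldown library for each of the antibodies J2 and K1, which bind double-stranded RNA whatever its sequence, so there were 12 libraries in 6 groups of 2. The Cre driver, the deleted exons and the other alleles of the control mice are not given in the sources used here.

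OAS enzymes are made in an inactive form and become active when they bind double-stranded RNA. They then join ATP into short oligoadenylates, which act as a second messenger of the antiviral response. Type I interferon, and in gut epithelium type III interferon, switches the genes on through a complex that holds STAT2 and IRF9 and binds a DNA element named ISRE.

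The genes lie in a pair of clusters on chromosome 5 (coordinates from GENCODE M21 on GRCm38). Oasl2 (114896936 to 114912234) and Oasl1 (114923240 to 114937915) are neighbours on the forward strand. Oas2 (120730333 to 120749853), Oas3 (120753098 to 120777661), Oas1g (120876142 to 120887613) and Oas1a (120896256 to 120907521) follow on the reverse strand. Each is annotated as protein coding, with 6 to 14 exonic blocks. Counts were made without strand, and only Oasl1 shares exonic bases with another gene, the antisense gene Gm13822, over 1.5% of its exonic length.

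Promoter windows of RefSeq (GRCm38.p6, from 250 bases before to 50 bases after the start) were at hand for 5 of the 6 members. Both strands were searched for the core of the ISRE, taken as GAAA, any 2 bases and GAAA again, and for the interferon gamma element GAS, taken as TTC, any 3 bases and GAA. The 100 bases before the start of the 3 members with an ISRE core are shown because all 6 members changed in level below. They run 5′ to 3′ on the strand of the gene, with the ISRE core in capitals. The stretches are chr5:120907526-120907625 for Oas1a, chr5:120887614-120887713 for Oas1g and chr5:120777660-120777759 for Oas3, each on the reverse strand.
Oas1a: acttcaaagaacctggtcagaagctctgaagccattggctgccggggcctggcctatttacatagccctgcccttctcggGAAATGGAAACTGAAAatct
Oas1g: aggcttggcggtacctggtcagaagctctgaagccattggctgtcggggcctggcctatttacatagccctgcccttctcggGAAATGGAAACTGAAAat
Oas3: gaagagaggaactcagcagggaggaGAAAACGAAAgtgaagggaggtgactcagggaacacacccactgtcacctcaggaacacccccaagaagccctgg

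In Oas1a and Oas1g the capitals hold a pair of overlapping cores, GAAATGGAAA and GAAACTGAAA, ending 5 bases and 3 bases before the start (positions -5 and -3). In Oas3 the core lies at positions -75 to -66. The Oas1a and Oas1g stretches were 90.2% identical with an unbroken shared run of 56 bases, while either was 43.1% or 44.9% identical to that of Oas3. Of the 32851 windows of this length in the table, 3.44% held an ISRE core. A GAS match was present in Oas1a only among the members, at positions -98 to -90, and in 8.3% of all windows. The windows of Oasl1 and Oasl2 held neither set of letters.

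Oas1a and Oas1g are near-identical copies, which bears on how reads were shared between them. Their main transcripts matched at 97.6% over 1861 bases and had an unbroken run of 526 identical bases, longer than a read of 150 bases. The coding sequences, each of 1104 bases, differed at 36 positions, 17 of which fell in the 90 coding bases from 438 to 527, counted from the A of the start codon in the GENCODE M21 transcript. That stretch is shown with the differing bases in capitals, as it is where reads can be told apart best.
Oas1a: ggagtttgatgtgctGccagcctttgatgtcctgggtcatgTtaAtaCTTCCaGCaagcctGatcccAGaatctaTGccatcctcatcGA
Oas1g: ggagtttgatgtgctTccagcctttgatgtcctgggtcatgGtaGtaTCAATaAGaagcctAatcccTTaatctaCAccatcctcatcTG
The separate counts of these 2 genes are therefore uncertain, and the main fit of each comparison was repeated with both counted as 1 gene. Levels, shares and the other alternatives were not. Of the other members, only Oas3 had near-identical sequence elsewhere, over 2.1% of its longest transcript, in Il31ra.

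Gene-assigned reads numbered 10307281 to 11474107 in the input libraries, 13308021 to 16139531 in the control pulldowns, 5826361 and 5559033 in the J2 and K1 pulldowns of DKO replicate 1, and 2691285 and 2220291 in those of DKO replicate 2. Reads aligned to several places made up 5.54% to 8.05% of the reads in the input and control libraries and 15.83% to 46.71% in the DKO pulldowns, and whether any of those reads entered a gene's count is not given in the sources used here. Input levels of both targeted genes were lower in DKO, Kat2a at 17.7 and 16.4 CPM (read counts scaled to a common library size with TMM factors) in control against 7.004 and 10.9 in DKO, and Kat2b at 28.6 and 24.7 against 9.84 and 8.38. Markers of epithelium, summed, were present in every library, and none of the 10 was at 0 in both libraries of a group.

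The first comparison asked whether OAS transcripts differed between DKO and control epithelium before any pulldown. All 6 members were higher in DKO input, with a median log2 fold change of 3.39 against -0.001 over all genes tested. Each passed the threshold of an adjusted p under 0.05 in edgeR's quasi-likelihood test across all genes. Among the 15088 genes tested, 18.8% were called higher in DKO and 35.9% were called in either direction. Neither DKO library overlapped the control range for 6 of 6 members, each being above it, as was the case for 34.0% of all genes tested. The order of the members by size of change was Oas2, Oas1a, Oas1g, Oas3, Oasl2 and Oasl1.

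**Figure D1:**
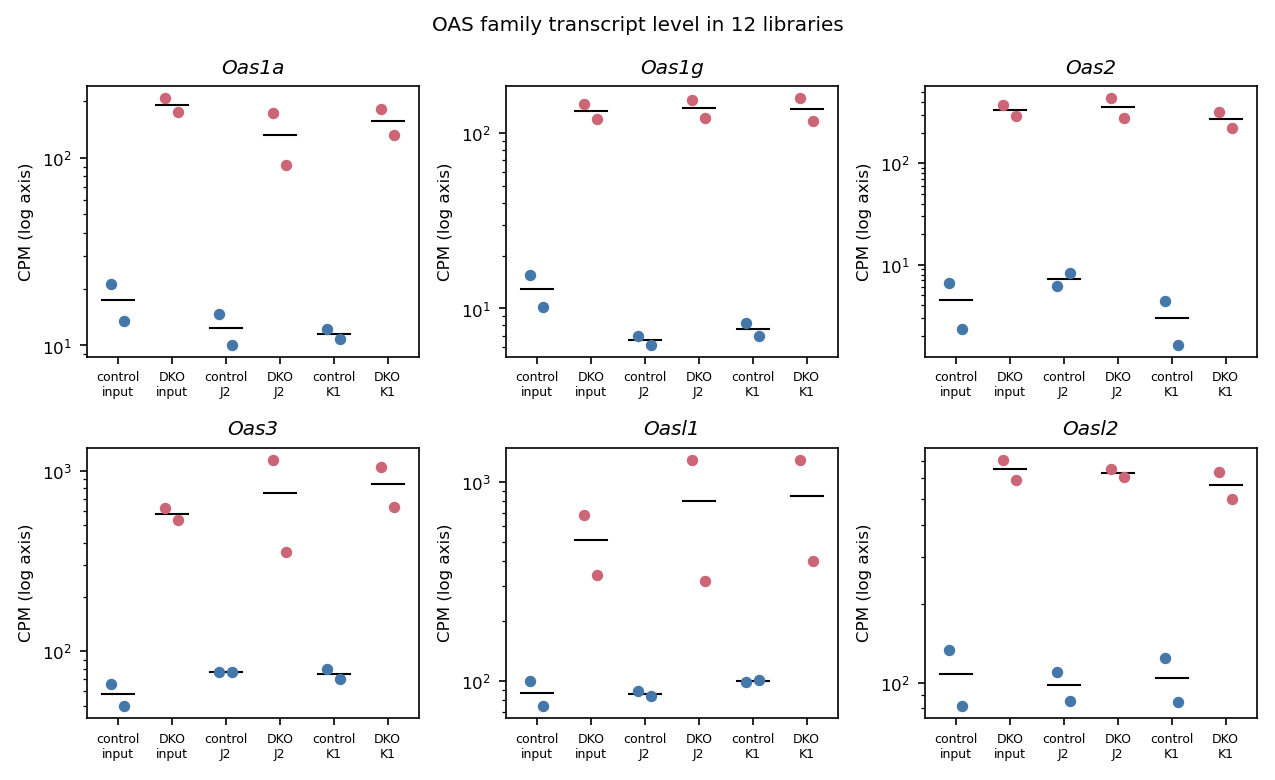
Level of each OAS member in scaled read counts (CPM, log axis, with its own range in each panel) in the 12 libraries. Points are libraries (replicate 1 left, replicate 2 right), control in blue and DKO in red, and bars are group means; in every panel both DKO libraries of a kind lie above both control libraries of that kind.

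Oas2, whose protein joins a pair of OAS units in 1 chain, changed most. It was at 6.61 and 2.31 CPM in control input (83 and 32 reads) and at 375.5 and 290.0 CPM in DKO input (4503 and 3945 reads). The control libraries were both near the bottom of the range of the family and the DKO libraries were in the range of the other members. That is a log2 fold change of 6.28 (SE 0.41, 95% interval 5.32 to 7.23, edgeR adjusted p 0.000107), a 77.5-fold rise, and it ranked 54th from the top among the 15088 genes. Its size moved with the control library left out, the log2 fold change of Oas2 being 7.20 without control replicate 1 and 5.68 without control replicate 2.

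Oas3, with a chain of several OAS units and a preference for long double-stranded RNA, rose from 65.9 and 49.7 CPM in control input to 622.6 and 536.9 in DKO input. The replicates of a genotype lay close together and the genotypes were far apart. The rise was 3.37 on the log2 scale (SE 0.19) with an adjusted p of 6.18e-05 in edgeR.

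The small synthetases had fold changes within each other's error. Oas1a, an active enzyme with a single OAS unit, went from 21.2 and 13.6 CPM in control to 207.9 and 176.8 in DKO (log2 fold change 3.51, SE 0.22). Oas1g, its near-copy, went from 15.5 and 10.2 CPM to 146 and 120.3 (3.42, SE 0.22). Counted as 1 gene, the pair had a log2 fold change of 3.47 (SE 0.23, edgeR adjusted p 0.000109), so the rise was as large with their reads pooled.

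The OAS-like genes encode proteins that end in ubiquitin-like domains. Oasl1, which makes no oligoadenylates and is known for holding back the translation of Irf7, was at 100.0 and 74.8 CPM in control input and at 686.7 and 339.6 in DKO input (log2 fold change 2.59, SE 0.33, edgeR adjusted p 0.00109). Its DKO libraries differed more from each other than those of any other member in input. Oasl2, an OAS-like protein that keeps the enzyme activity, was at 133.6 and 81.4 CPM in control and at 705.8 and 593.4 in DKO (2.64, SE 0.24, edgeR adjusted p 0.000347).

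As whole tissue fractions were measured, more cells of a type and more RNA per cell cannot be told apart. Summed markers of leukocytes, which also carry OAS transcripts, were 130 and 127 CPM in control input and 102 and 82.8 in DKO input, with none of the 15 markers at 0 in both libraries of an input group, and 6 of 12 tested markers called lower and 1 higher in DKO. Summed Paneth markers were 14460 and 13860 CPM in DKO input against 5604 and 3842 in control, with 2 of 6 called higher and 1 lower, and stem cell markers were 163 and 190 CPM against 513 and 516, with 4 of 6 called lower. The part of these shifts in the OAS result was not tested.

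The same genotype comparison was then made within each kind of pulldown, where a value combines how much of a transcript is present with how much is captured. In J2 libraries 5 of 6 members were called higher in DKO, where 6.02% of 13181 genes tested were called higher and 12.2% in either direction. In K1 libraries 6 of 6 were called higher, against 13.2% of 12888 genes called higher and 27.1% in either direction. The members' median log2 fold change was 3.38 in J2 and 3.81 in K1. In both kinds each DKO library lay above each control library for 6 of 6 members, as for 29.6% of all genes in J2 and 24.9% in K1. The J2 calls changed with the library left out. Without control replicate 1, and equally without control replicate 2, 0 of 6 members were called in J2, with adjusted p up to 0.671, although each stayed higher in DKO, and 1.33% and 1.68% of all genes were called. Without either DKO replicate 6 of 6 were called, where 59.0% (without replicate 1) and 54.0% (without replicate 2) of all genes were called. In K1, 5 of 6 were called without control replicate 2, Oasl2 being the exception (adjusted p 0.066).

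**Figure D2:**
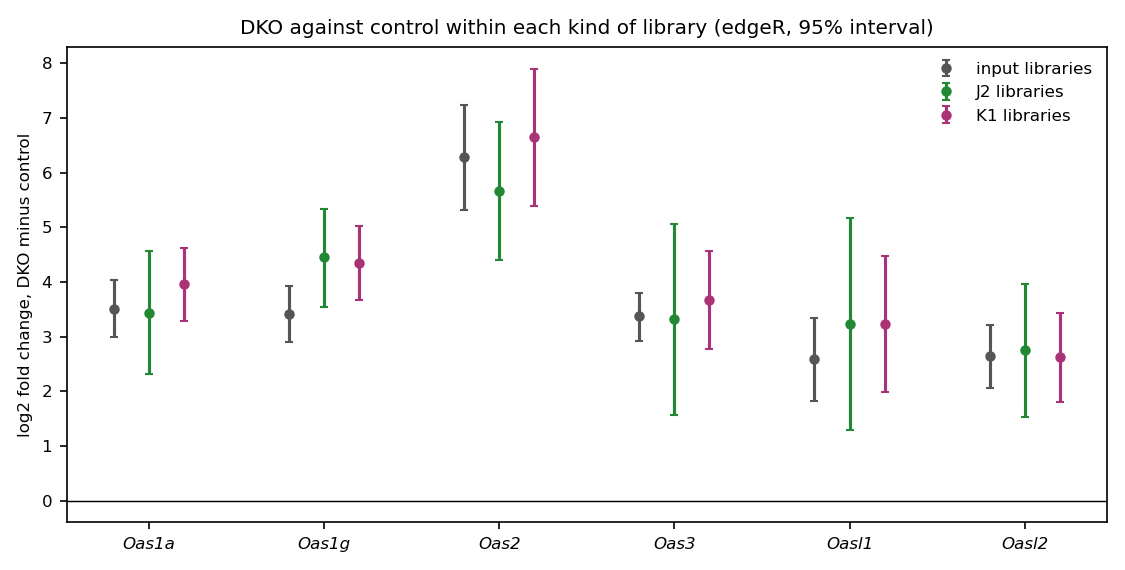
Log2 fold change of DKO over control (vertical axis) for the 6 members in input, J2 and K1 libraries. Points are edgeR estimates from 2 against 2 libraries and bars are 95% intervals; the intervals of all 6 members lie above 0 in each kind of library.

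Oas2 was again the member with the largest change. In control mice it was at 6.18 and 8.26 CPM with J2 and at 4.38 and 1.64 CPM with K1. In DKO mice the J2 libraries stood at 435 and 276.9 CPM and the K1 libraries at 320.7 and 222 CPM. No DKO library came near a control library. In J2 the change was 5.67 on the log2 scale (SE 0.50, edgeR adjusted p 0.0287) and in K1 it was 6.65 (SE 0.54, adjusted p 0.00168), the latter the 37th highest of the genes tested. The K1 value of Oas2 was 7.53 without control replicate 1 and 6.08 without control replicate 2.

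Oas1g was at 6.93 and 6.23 CPM in control J2 against 155 and 122 in DKO J2, and at 8.27 and 7.005 CPM in control K1 against 157.5 and 117 in DKO K1. Its log2 fold change in J2, 4.45 (SE 0.36), and that in K1, 4.35 (SE 0.29), were above its 3.42 in input. Oas1a was at 14.7 and 10.1 CPM in control J2 against 173 and 91.3 in DKO J2, and at 12.3 and 10.8 CPM in control K1 against 183 and 133 in DKO K1 (3.44, SE 0.45, and 3.96, SE 0.28). Both genes kept a wide gap between the genotypes with either antibody. Counted as 1 gene the pair rose by 3.88 (edgeR adjusted p 0.0288) in J2 and 4.13 (0.00172) in K1.

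Oasl1 and Oas3 differed most between the DKO animals. Oasl1 was at 88.5 and 84.0 CPM in control J2 and at 1291 and 320 in DKO J2, for replicates 1 and 2. In K1 it was at 98.9 and 100.9 CPM in control and 1295 and 402 in DKO. Replicate 1 was the high library with each antibody, and it was also the higher one in input. Its J2 fold change of 3.23 (SE 0.77, 95% interval 1.30 to 5.17) was the one member's value that missed the threshold (edgeR adjusted p 0.0533), and in K1 the value of 3.23 (SE 0.53) was called (adjusted p 0.00691). With DESeq2, without TMM, with a replicate block or after thinning, Oasl1 was called in J2 too. Its log2 fold change was 1.97 in J2 and 2.26 in K1 without DKO replicate 1, against 3.96 and 3.85 without DKO replicate 2.

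Oas3 was at 76.9 and 76.5 CPM in control J2 and at 1153 and 356 in DKO J2, and at 79.3 and 70.2 CPM in control K1 and at 1057 and 632 in DKO K1. The control libraries were almost equal and the spread lay in the DKO libraries. The rise was 3.32 with J2 (SE 0.70, edgeR adjusted p 0.0433) and 3.67 with K1 (SE 0.38, adjusted p 0.00212), on the log2 scale. The J2 value of Oas3 was 2.29 without DKO replicate 1 and 3.97 without DKO replicate 2. Oasl2, by contrast, was at 653 and 606 CPM in the DKO J2 libraries, against 109.9 and 85.2 in control (2.75, SE 0.48), and at 634 and 499.5 CPM in DKO K1, against 124 and 84.7 in control (2.63, SE 0.35).

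Beside this spread, summed epithelial markers were 13660 CPM in DKO J2 replicate 1 and 4417 in replicate 2, and enterocyte markers 27550 and 4908. In K1 they were 15660 and 7441, and 32640 and 8434. Stromal markers, at 3.26 to 6.25 CPM in input, were 143 and 29.9 CPM in DKO J2 and 170 and 63.4 in DKO K1, against 5.49 and 18.8 in control J2 and 4.01 and 34.1 in control K1, with Cdh5 and Kdr at 0 in the J2 groups. Their part in the OAS values was not tested.

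Pulldown was next set against input, to ask whether the antibodies captured OAS transcripts beyond their abundance. No pulldown with an unspecific antibody was used here. In control mice 0 members were called enriched by either antibody and 1, Oas1g, was called lower. In J2 libraries Oas1g had a log2 value of -0.96 against input (SE 0.30, edgeR adjusted p 0.0431) and in K1 libraries -0.82 (SE 0.27, adjusted p 0.0329). Among all genes tested in control, 29.8% were called in J2 (14.6% lower) and 39.8% in K1 (20.1% lower). With 1 animal left out, the Oas1g value ran from -1.14 to -0.69 in J2 and from -0.96 to -0.63 in K1. The J2 call was lost without the filter on low counts and after thinning, and the K1 call in 1 fit of all 12 libraries. Both calls were also lost without either control animal, which leaves 1 control library of each kind. With the animal as a replicate block, 2 members were called lower in K1, Oas1g and Oas1a. In that fit 45.8% of all genes were called and 22.6% were called lower. Counted as 1 gene, Oas1a and Oas1g stood at -0.67 (adjusted p 0.196) in J2 and -0.73 (adjusted p 0.0605) in K1.

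In DKO mice 0 of 6 members were called in either direction with J2 or with K1 by edgeR or by DESeq2, and 0 had an unadjusted p under 0.05. All genes gave 25.7% and 35.6% called in these comparisons. The members' log2 values against input ran from -0.52 (Oas1a, 95% interval -1.39 to 0.35) to 0.67 (Oasl1, -0.77 to 2.12) in J2, and from -0.37 (Oas2, -1.37 to 0.62) to 0.64 (Oasl1, -0.43 to 1.71) in K1. The J2 result changed with the animal left out. Without DKO replicate 1, Oas1a and Oas3 were called lower than input, Oas3 at -0.70, where 46.0% of all genes were called (25.8% lower). Without DKO replicate 2, Oas3 and Oasl1 were called higher, at 0.92 and 0.94, where 42.1% of all genes were called (23.4% higher). In K1, Oasl1 was called higher without DKO replicate 2, at 0.83, where 36.4% of all genes were called (17.1% higher). These counts of 1 or 2 of 6 members are near the shares over all genes.

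**Figure D3:**
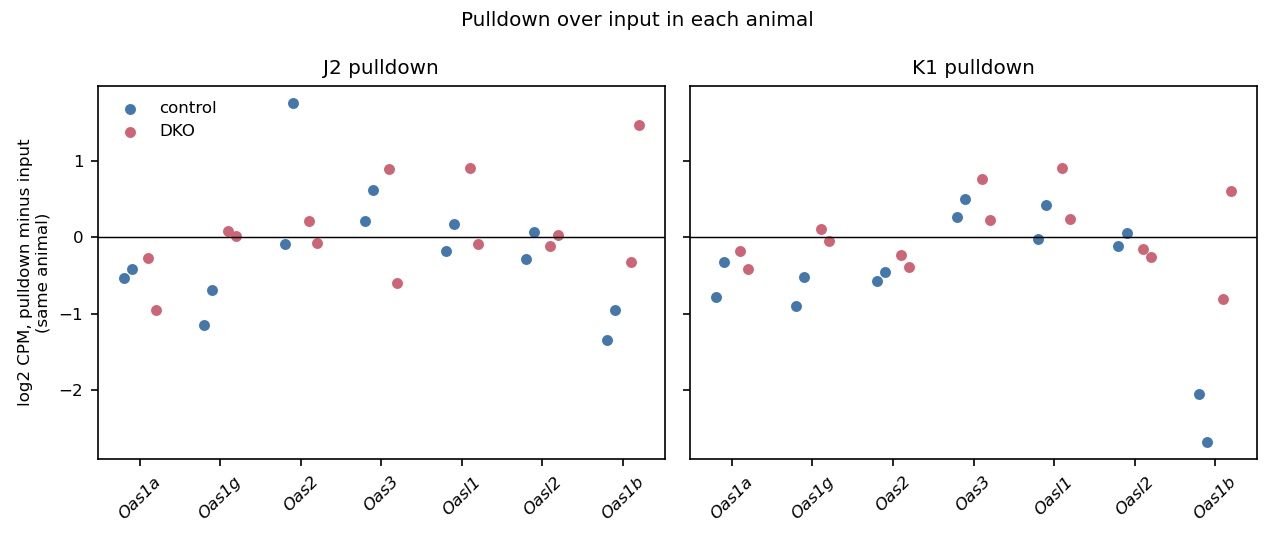
Log2 CPM in a pulldown minus log2 CPM in the input of the same animal (vertical axis), for J2 (left) and K1 (right). Points are animals, control in blue and DKO in red, with replicate 1 left of replicate 2; Oas1g lies below 0 in the control animals and near 0 in the DKO animals, and Oas2 in J2 differs between the control animals.

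Per animal, Oas1g stood at -1.14 and -0.69 in control J2 and at 0.08 and 0.02 in DKO J2. In K1 it stood at -0.89 and -0.52 in control and at 0.11 and -0.04 in DKO. The DKO animals lay above the control animals with either antibody. With J2 this held for 1 of 6 members and for 26.9% of all genes, and with K1 for 2 of 6, Oas1g and Oas2, and 20.4% of all genes. Oas3 was at 0.22 and 0.62 in control J2 but at 0.89 and -0.59 in DKO J2, so that the DKO animals lay on either side of the control animals. Oas2 was at -0.09 and 1.76 in control J2, where the input level of control replicate 2 rests on 32 reads.

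The comparison the study's design names is the difference of enrichment, pulldown over input in DKO minus the same in control. It was called for 0 of 6 members with J2 and for 0 of 6 with K1, by edgeR and by DESeq2. Among all genes, 2.71% were called with J2 and 5.47% with K1. Over the alternatives the J2 share ran from 0% (with the replicate block and without either control animal) to 41.3% (without DKO replicate 1), and the K1 share from 0% (without control replicate 1) to 22.7% (without DKO replicate 1). Oas1g had the largest value with both antibodies, at 1.04 for J2 (95% interval 0.10 to 1.98, unadjusted p 0.0344, edgeR adjusted p 0.162) and 0.79 for K1 (-0.02 to 1.60, adjusted p 0.227). It was the one member with an unadjusted p under 0.05, and only for J2. Counted as 1 gene, Oas1a and Oas1g had a difference of 0.43 for J2 (SE 0.50, edgeR adjusted p 0.625) and 0.51 for K1 (SE 0.39, adjusted p 0.469), each below the value of Oasl1. A pooled value tends to lie between those of the copies however their reads were split. It therefore cannot tell whether the split shaped the value of Oas1g. The remaining J2 values were 0.69 for Oasl1 (-1.35 to 2.73), 0.12 for Oasl2 (-1.09 to 1.33), -0.01 for Oas3 (-1.68 to 1.67), -0.04 for Oas1a (-1.29 to 1.22) and -0.58 for Oas2 (-2.16 to 1.01). Those intervals reach more than 1 log2 unit to either side for each of these 5, so a change of capture of that size was not detectable. K1 intervals were narrower for Oas1a (0.31, -0.53 to 1.14) and Oas3 (0.17, -0.78 to 1.11), and the K1 value was 0.53 for Oasl1, 0.24 for Oas2 and -0.16 for Oasl2. The J2 and K1 values share their input libraries and their animals.

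The J2 difference also turned on single animals. Without DKO replicate 1, Oas1g and Oas3 were called, Oas3 at -0.99 (edgeR adjusted p 0.0112), and without DKO replicate 2, Oas1g and Oasl1 were called, Oasl1 at 0.94 (adjusted p 0.0249). In these fits 41.3% and 27.6% of all genes were called, so 2 of 6 members is near the share over all genes. Scaling matters here as well. Leaving out TMM moved the median of all genes from -0.14 to -0.48 in the K1 comparison with input in DKO and from 0.1 to -0.26 in the J2 comparison with input in DKO, and 1 member, Oas1a, was then called lower than input in DKO with each antibody. Of all genes, 3018 of 15923 in J2 and 4843 of 15908 in K1 were then called lower.

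Levels per length were compared between members as RPKM (CPM per kilobase of exonic length). That length is the union of all annotated exons. It exceeded the longest transcript most for Oasl2 (6374 against 3123 bases) and Oas3 (7069 against 4720), and equalled it for Oas1a (1885). The order and shares of the members rest on this choice, and levels per transcript length were not computed. In control input the order was Oasl1 at 33.5, Oasl2 at 16.9, Oas1a at 9.23, Oas3 at 8.18, Oas1g at 5.49 and Oas2 at 1.00. The libraries of neighbours in that order did not overlap, other than those of Oas1a and Oas3. In DKO input Oasl1 led at 197 RPKM, followed by Oas1a and Oasl2 at 102 each, Oas3 at 82.0, Oas2 at 74.8 and Oas1g at 56.9. Oas1a overlapped Oasl2, and Oas3 overlapped Oas2. Oas2 had thus moved from last place, and in DKO input it no longer stood apart from Oas3.

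**Figure D4:**
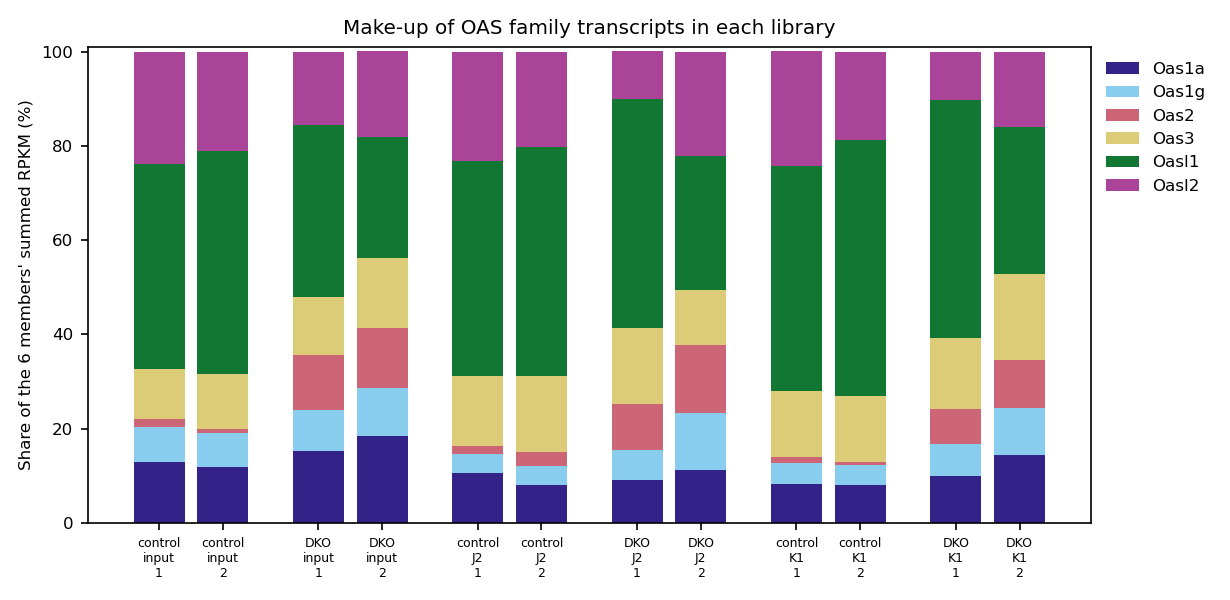
Share of each member in the summed RPKM of the 6 members (vertical axis, percent) in each of the 12 libraries, with the replicate number under each bar. The Oas2 share is 0.519% to 2.80% in the 6 control libraries and 7.34% to 14.4% in the 6 DKO libraries.

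The summed level of the 6 members went from 88.03 and 60.5 RPKM in control input to 719 and 509.6 in DKO input. As a share of all gene-assigned reads the family took 0.0418% and 0.028% in control input against 0.293% and 0.249% in DKO input. The control shares were 0.0288% and 0.0251% with J2 and 0.0328% and 0.0263% with K1, and the DKO shares 0.26% and 0.213% with J2 and 0.276% and 0.199% with K1. The family's make-up shifted as well. Oas2 was 1.27% of the summed RPKM in control input and 12.3% in DKO input, while Oasl1 went from 45.5% to 31.1%. In the DKO pulldowns the Oasl1 share was 48.7% (J2) and 50.5% (K1) in replicate 1 and 28.5% and 31.3% in replicate 2, so its share of the family differed between these animals, while it had the highest RPKM of the members in each.

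Among 9 other genes of the pathway, 7 could be tested in input, and 3 were called higher in DKO, 1 lower and 3 neither. Of all genes tested, 18.8% were called higher and 17.1% lower. Their median log2 fold change was 1.13.

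**Figure D5:**
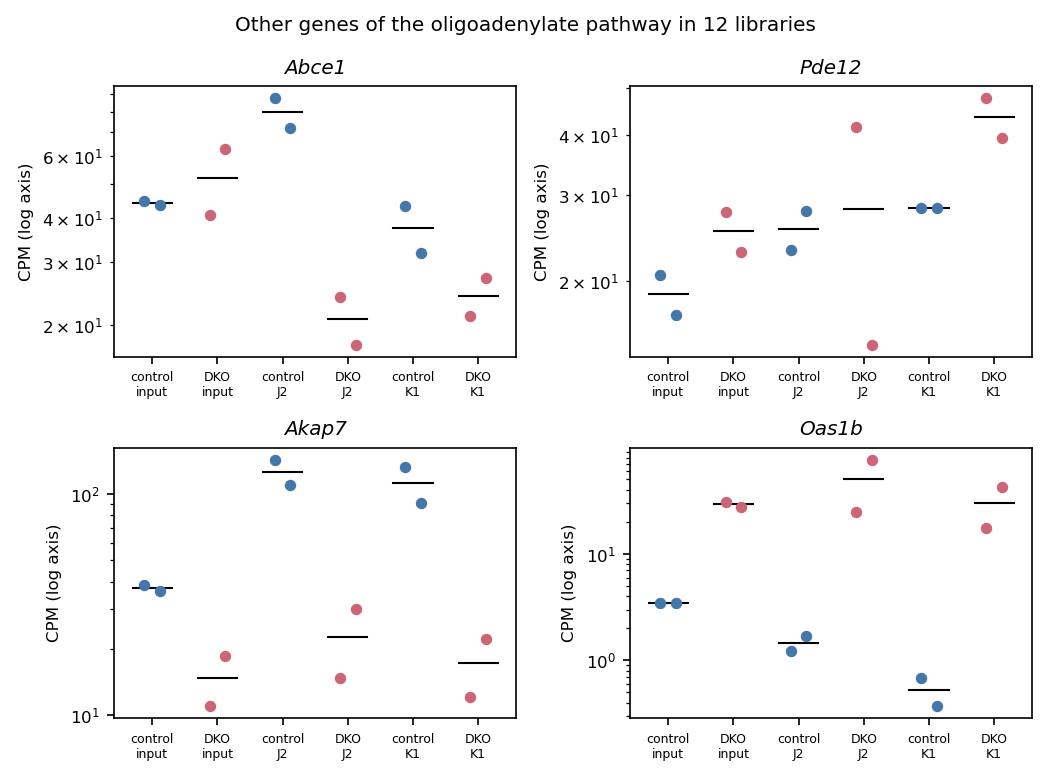
Level of Abce1, Pde12, Akap7 and Oas1b in scaled read counts (CPM, log axis, with its own range in each panel) in the 12 libraries. Points are libraries, control in blue and DKO in red, and bars are group means. Abce1 is lower in both DKO libraries than in both control libraries with J2 and with K1, and Oas1b is higher in DKO in each kind of library.

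Other Oas1 genes of the cluster were measured at low levels. Oas1b, annotated as a polymorphic pseudogene and known for its link to flavivirus resistance in mice, was at 3.42 and 3.46 CPM in control input (43 and 48 reads) and at 31.0 and 27.6 in DKO input (372 and 375 reads). This 8.72-fold rise (log2 3.12, SE 0.17, edgeR adjusted p 6.18e-05) was of the same order as that of the small synthetases, with no overlap of the groups. Oas1c (1.13, SE 0.28) and Oas1h (2.21, SE 0.41) were also called higher from no more than 52 reads per library, and Oas1c shares 8.9% of its longest transcript with Gm43069. Oas1e had a value of 1.44 (edgeR adjusted p 0.0708). Oas1d and Oas1f had at most 8 reads in any library and were not tested.

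Of the 3 genes of the list outside the Oas1 cluster, none was called higher in input. Abce1, a ribosome recycling factor, was at 44.6 and 43.5 CPM in control input and at 40.9 and 62.9 in DKO input (log2 fold change 0.28, edgeR adjusted p 0.309). Pde12, a phosphodiesterase that degrades oligoadenylates, had a value of 0.47 (adjusted p 0.0584), and 8.69% of its longest transcript is shared with other genes. Akap7, one of whose isoforms can cut oligoadenylates, fell by 1.30 on the log2 scale in input (SE 0.22, adjusted p 0.0042), from 38.5 and 36.3 CPM to 11.01 and 18.4. It was also lower in DKO in J2 (-2.40, SE 0.50) and K1 (-2.52, SE 0.41).

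Of all genes tested, 6.02% were called higher in DKO and 6.16% lower in J2, and 13.2% higher and 13.9% lower in K1. Among the 6 of these genes tested in J2, Oas1b was called higher (5.2, SE 0.76) and Abce1 (-1.89, SE 0.33, edgeR adjusted p 0.0338) and Akap7 lower. With 1 animal left out, the Abce1 value in J2 ran from -2.1 to -1.67. The call was lost without either control animal, which leaves 1 control library. Among 6 tested in K1, Oas1b (5.96, SE 0.65), Oas1c (2.50) and Oas1h (3.53) were called higher and Akap7 lower. Abce1 was not called in K1 (-0.45, SE 0.32, edgeR adjusted p 0.335).

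The route from the interferon receptor to the OAS promoters was examined through 7 genes. In input 5 of 7 were called higher in DKO, against 18.8% of all genes, with a median log2 fold change of 1.09. Irf7, a factor that amplifies interferon output, rose by 2.74 (SE 0.17) and Stat2 by 2.18 (SE 0.20), followed by Irf9 (1.43, SE 0.12), the receptor chain Ifnar2 (1.09, SE 0.21) and the kinase Jak1 (0.59, SE 0.13). Ifnar1 (0.38) and Tyk2 (0.33) did not pass. In J2 libraries 2 of 7 were called higher, Stat2 and Ifnar2, and in K1 libraries 4 of 7, Irf7, Stat2, Ifnar2 and Irf9, where 6.02% and 13.2% of all genes were called higher.

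Of the 6 interferon genes examined, which include no interferon alpha gene, 5 had few or no reads. Ifnb1 had 0 reads in all 12 libraries, and Ifnl2, Ifnl3, Ifne and Ifng had at most 3 in any. Only Ifnk could be tested, in input, where it had 25 and 33 reads in control and 9 and 16 in DKO (-1.12, SE 0.36, edgeR adjusted p 0.0438).

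Genes beside the clusters were called in both directions. Of the 12 nearest protein-coding genes tested in input, 6 beside each cluster, 2 were called higher and 4 lower. Of all genes tested, of any type, 18.8% and 17.1% were called so, and 2 of 12 higher is near that share. Those beside Oasl1 and Oasl2 included Ankrd13a, at 166 CPM in each group (0.04, SE 0.12), and Sppl3 (-0.30, edgeR adjusted p 0.17). Beside the other cluster, Ptpn11 had a value of 0.23 (adjusted p 0.173) and Hectd4 fell by 1.08 (SE 0.13). The genes called higher were 1500011B03Rik (1.31) and Rasal1, at 0.264 CPM in control input and 6.12 in DKO input.

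Across the 12 libraries, the genes outside the family whose profile lay closest to the members' mean profile were H2-Q6, Cxcl10, Lpcat4, Gbp9 and Icam1, out of 9372 genes ranked. The measure was the root-mean-square difference of centred log2 CPM, which was 0.27 for H2-Q6, 0.30 for Cxcl10, 0.33 for Lpcat4 and Gbp9 and 0.36 for Icam1. H2-Q6, a class I histocompatibility gene, was at 12.4 CPM in control input and 129 in DKO input, and Cxcl10, an interferon-induced chemokine, at 2.39 and 26.2. By the same measure Oas1a (0.26), Oas1g (0.32) and Oas3 (0.35) were near their own mean profile, Oasl2 (0.60) and Oasl1 (0.62) farther, and Oas2 (1.30) farthest. Each member is part of that mean, which lowers its distance, so these values are not on equal terms with those of the outside genes. The 12 libraries come from 4 animals, so this is a description of these libraries.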

How the data were processed

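The authors deposited whole-number counts of reads per gene, 1 table per library, made without strand per the labels' file descriptions. The submitters' processing notes name STAR 2.7.10b, UMI-tools 1.1.4, HTSeq 2.0.2, DESeq2 1.40.1 and edgeR 3.42.2 with the builds mm10 and GRCm38.p4. Their settings, and whether duplicates were removed by molecular identifier, are not given in the sources used here. Per the labels' protocols, libraries were primed with random hexamers and depleted of ribosomal RNA. Of the 48526 gene rows, 48144 matched GENCODE M21 without version. The 5 closing rows were left out: reads outside genes were 6.76% to 27.0%, ambiguous reads 3.65% to 6.11% and multiply aligned reads 5.54% to 46.71%.

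Counts were tested with edgeR 4.0.16 (quasi-likelihood, TMM, filterByExpr with a minimum count of 10, Benjamini-Hochberg adjustment over all genes tested, threshold 0.05). DKO and control were compared within each kind of library (4 libraries, 2 residual degrees of freedom), and pulldown with input and the difference of enrichment in fits of 8 libraries (4 residual degrees of freedom). Intervals are 95%. Levels used 1 TMM scaling over 12 libraries, and log2 CPM a prior count of 2. Alternatives were no TMM, DESeq2 1.42.0, no filter, 1 fit of 12 libraries, a replicate block, thinning to 2220291 reads, and leaving out each animal. Near-identical sequence was found with blastn 2.17.0+.

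The members and gene lists were chosen with earlier results of these data known. Named genes are the members, the targeted genes, fixed lists of the oligoadenylate pathway, interferon signalling and interferons, and the 5 genes nearest in profile among those with a mean of at least 50 counts. A few genes of these lists are not reported here, and the lists were counted without them. The 3 nearest tested protein-coding genes on each side of each cluster were added after values had been seen. Input and pulldown with the same number come from the same animal. Their deviations from group means correlated at 0.208 to 0.296 across genes, and those of J2 with K1 at 0.376 in control and 0.494 in DKO. The animal was therefore the block in the alternative with a replicate block, and the main fits have none. Control and DKO animals share only a number (0.026, -0.088 and -0.097). Replicates are separate animals, and no 2 libraries agreed within sampling noise (chi-square per degree of freedom 11 to 96.05).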

Additional observations from a re-analysis of the deposited data

Results flagged for a closer look

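For 2 genes of the pathway, pulldown over input differed between DKO and control by a test of that difference. Abce1 had a J2 difference of -2.15 (SE 0.41, edgeR adjusted p 0.0434). Against input it stood at 0.97 and 0.72 in the control animals and at -0.76 and -1.83 in the DKO animals, where J2 libraries held 94 and 57 reads. The call was lost with the replicate block, where 0% of all genes were called. It was also lost without either control animal, which leaves 1 control library of each kind. With 1 animal left out, the difference ran from -2.68 to -1.61. Its adjusted p lay between 0.000102 and 0.738 in the alternatives. The K1 difference was -0.90 (adjusted p 0.188). Against input, Abce1 was called lower with K1 in DKO (-1.21, SE 0.28, edgeR adjusted p 0.00916), where 3334 of 15908 genes were called lower, and not in control (-0.31, SE 0.26).

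Oas1b had a K1 difference of 2.64 (SE 0.63, edgeR adjusted p 0.0411). Against input it stood at -2.05 and -2.68 in control and at -0.81 and 0.61 in DKO. Control K1 libraries held 11 and 5 reads of it, and DKO K1 libraries 74 and 93. The call was lost without TMM, in 1 fit of 12 libraries, after thinning and without either control animal. Leaving out a control animal leaves 1 control library of each kind. With 1 animal left out, the difference ran from 1.82 to 3.2. Its adjusted p lay between 2.24e-05 and 0.584 in the alternatives. The J2 difference was 2.04 (adjusted p 0.127).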

How the results depend on the processing

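Across the alternatives, 180 of 180 fold changes of the members between DKO and control within a kind of library were positive and 167 were called. The number of members called stayed at 6 in input under every alternative run. Leaving out 1 animal changed how many members were called in J2 and in K1 for DKO against control. It also did so for J2 and K1 against input in each genotype, and for the J2 difference of enrichment. The share of all genes called moved widely in each of these comparisons too, so such changes are not particular to the members. Leaving out a DKO animal changes the control comparisons with input through the genes that pass the filter, the scaling and the shared estimate of spread. In place of 1 member, J2 against input in control had 0 without the filter on low counts and 0 after thinning. All genes called were then 5823 of 29004 and 2560 of 11380. In place of 1 member, K1 against input in control had 2 with DESeq2, 2 without TMM, 2 with the replicate block and 0 in 1 fit of 12 libraries. All genes called there were 5856, 5965 and 7288 of 15908, and 4587 of 16582. Without TMM, 1 member was called in place of 0 against input in DKO for J2 and 1 for K1. All genes called without TMM were 3825 of 15923 and 6234 of 15908. Oas3 in J2 against input in DKO changed sign from 0.41 to -0.70 (adjusted p 0.0185) without DKO replicate 1, and was 0.92 without DKO replicate 2. The cause of these changes was not tested. The K1 difference of enrichment stayed at 0 members under every alternative run.

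The replicate block moved no other count of members called by over 1.5 times, and gave 6 of 6 in each comparison of DKO with control, where the numbers pair no animals. With the block, 19.8% of all genes were called higher in DKO in input, 8.68% in J2 and 12.6% in K1. Leaving out TMM moved the share of higher calls among all genes called from 52.4% to 42.1% in input, from 49.4% to 32.7% in J2 and from 48.6% to 27.4% in K1, and the median of all genes to -0.13, -0.06 and -0.39. The DKO pulldowns held 2220291 to 5826361 gene-assigned reads, and each genotype had 2 animals. Whether duplicate reads were removed before counting is not stated. Counting Oas1a and Oas1g as 1 gene, and the alternatives for Abce1 and Oas1b, were chosen after seeing the data.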
